A study of Mus musculus with 12 samples.

Results

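The data described here are the transcript levels of 44 mouse genes that build and run neurons: tubulins and other cytoskeletal genes, RNA-binding proteins of neurons, genes of vesicle release, cell adhesion and axon guidance, and 4 transcription factors. They were followed among 24138 genes in sorted cells of the intra-aortic haematopoietic clusters, the cell groups on the wall of the embryonic aorta that give rise to blood stem and progenitor cells. The 44 genes were picked by name with results of these tables in view, and mainly for high values in G1 cells at E10.5. Values that involve that group are therefore given as a description only. Each gene was found on 1 row of every table, and none shares its row with another gene.

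The embryos were C57BL/6 mice at the stages E10.5 and E11.5, named for days of gestation. Their aorta-gonad-mesonephros regions were sorted for cells with CD31 and CD117 and without SSEA-1 on the surface. G1 cells were the mKO2-positive cells of Fucci Red animals and S/G2/M cells the mAG-positive cells of Fucci Green animals. Fucci reporters are fluorescent fragments of cell cycle proteins that accumulate in different phases. The 12 samples formed 4 groups of 3, E10.5 G1, E10.5 S/G2/M, E11.5 G1 and E11.5 S/G2/M. Phase and reporter strain cannot be told apart, since every G1 sample was Fucci Red and every S/G2/M sample Fucci Green. Separate litters or sorts for the 3 samples of a group, or pooling of embryos, are not stated in the labels. The authors' tables hold 1 value per gene and group, in FPKM (fragments scaled to transcript length and library size), so a spread over samples cannot be given, nor the depth. Fallen, risen and changed are used here of genes with a q-value under 0.05 in the authors' deposited table, whose p-values measure at most the spread between those samples, which may be technical.

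The genes of the sort were present. Pecam1, which encodes CD31, had 39.8 and 30.2 FPKM in E10.5 G1 and S/G2/M cells and 111 and 69.9 FPKM at E11.5, and Kit, which encodes CD117, ranged from 12.7 to 28.9 FPKM. Of 13 cluster cell markers, 12, 12, 12 and 13 reached 1 FPKM in the 4 groups, and Gfi1 was the lowest, at 0.25 to 1.63 FPKM. Transcripts of genes used as markers of other cell types were also present. The 10 macrophage markers summed to 282, 172, 2123 and 578 FPKM in E10.5 G1, E10.5 S/G2/M, E11.5 G1 and E11.5 S/G2/M cells. In the same groups 7 erythroid markers summed to 15038, 19179, 11744 and 3036 FPKM. Whether macrophages or erythroid cells were among the sorted cells was not tested.

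Young neurons carry tubulin isotypes and microtubule-associated proteins that stiffen and extend the axon, and neurofilament proteins that fill it. Their growth cones read guidance cues through receptors such as Dcc and Robo2, and their terminals release transmitter through SNARE proteins such as Snap25 and syntaxin 1A. Many of these genes are repressed outside neurons by the factor REST, which binds the RE1 element. In the embryo at these ages, neurons are forming in the neural tube, in the sensory ganglia beside it and in the sympathetic ganglia near the aorta.

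To show the sequences in front of these genes, RefSeq promoters (GRCm38.p6) were matched by symbol, and the 250 bases before each start were read. Promoters were found for 31 of the 44 genes, 54 promoters in all, and for comparison 32851 promoters of all genes were searched. The motifs searched on both strands were the E-boxes CAGCTG and CAGATG bound by neuronal bHLH factors, the GC box GGGCGG, the TATA box TATAAA, and TTCAGCACC, the left part of the RE1 element. GGGCGG was in 27 of the 54 promoters of the neuronal genes (50%) and in 32.7% of all promoters. CAGCTG was in 13 (24.1%) against 13.0% of all, and CAGATG in 12 (22.2%) against 14.4% of all. TATAAA was in 9 (16.7%) against 12.4% of all. TTCAGCACC was in 2, those of Nsg2 and Syn1 (3.70%), against 0.301% of all. The palindromic CAGCTG reads the same on both strands, and none of the motifs contains another. Promoters of the neuronal genes also had more G and C, a median of 58.8% against 52.4% of all promoters, and 11 CpG dinucleotides against 6, and the motif shares were not adjusted for this. A match is a description of letters and not a site shown to be bound.

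The promoters of 4 genes are printed as examples. Tubb3 and Elavl3 fell in S/G2/M cells at E10.5, Ncan was the 1 gene of the 44 that fell in S/G2/M cells at both ages, and Syn1 holds the RE1 part. Capitals mark GGGCGG and CAGCTG in the first 3 and TTCAGCACC in Syn1, and every sequence ends at the base before the start, on the strand of the gene. The GC boxes of Tubb3 (chr8:123411303-123411552, plus strand) begin 138 and 46 bases before the start. In Elavl3 (chr9:22052024-22052273, minus strand) the E-box begins 43 and the GC box 20 bases before it. In Ncan (chr8:70120845-70121094, minus strand) the GC box begins 126 and the E-box 58 bases before it. The RE1 part of Syn1 (chrX:20920919-20921168, minus strand) begins 232 bases before the start.
Tubb3: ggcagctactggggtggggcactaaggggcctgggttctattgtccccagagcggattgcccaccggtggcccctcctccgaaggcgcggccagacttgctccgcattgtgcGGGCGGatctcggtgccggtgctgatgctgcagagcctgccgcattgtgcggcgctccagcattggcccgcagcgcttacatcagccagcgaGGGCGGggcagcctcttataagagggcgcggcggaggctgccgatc
Elavl3: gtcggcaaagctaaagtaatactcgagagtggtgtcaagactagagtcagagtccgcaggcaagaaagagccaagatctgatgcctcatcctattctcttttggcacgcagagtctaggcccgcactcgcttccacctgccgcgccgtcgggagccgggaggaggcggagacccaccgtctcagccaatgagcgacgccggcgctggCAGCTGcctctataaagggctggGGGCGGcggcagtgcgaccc
Ncan: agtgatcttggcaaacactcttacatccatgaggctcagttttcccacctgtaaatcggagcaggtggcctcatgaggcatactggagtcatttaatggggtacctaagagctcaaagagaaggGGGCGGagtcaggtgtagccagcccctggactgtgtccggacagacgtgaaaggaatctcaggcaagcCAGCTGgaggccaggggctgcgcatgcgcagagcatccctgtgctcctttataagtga
Syn1: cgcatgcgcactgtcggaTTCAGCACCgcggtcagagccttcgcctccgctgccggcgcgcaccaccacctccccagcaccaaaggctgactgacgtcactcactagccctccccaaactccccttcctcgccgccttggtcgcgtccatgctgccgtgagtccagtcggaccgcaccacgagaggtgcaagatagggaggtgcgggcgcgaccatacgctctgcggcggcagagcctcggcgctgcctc

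Summed over the 44 genes, the level was 2923 FPKM in E10.5 G1 cells, 1255 FPKM in E10.5 S/G2/M cells, 1408 FPKM in E11.5 G1 cells and 799.2 FPKM in E11.5 S/G2/M cells. Tuba1a alone, which was called in no comparison, held 1421, 799.5, 797 and 473 FPKM of these sums. The median gene had 18.1, 4.19, 6.95 and 2.85 FPKM. No gene was listed at 0 in any group, and 43, 38, 42 and 36 reached 1 FPKM. E10.5 G1 cells had the highest value for 39 of the 44 genes. The exceptions were Syt4, highest in E10.5 S/G2/M cells, Mapt, Syt1 and Kif5c, highest in E11.5 G1 cells, and Stx1a, highest in E11.5 S/G2/M cells. E11.5 S/G2/M cells had the lowest value for 27 genes, E10.5 S/G2/M cells for 14, and E11.5 G1 cells for Stmn4, Cntn2 and Slit2. These levels come from the 2 tables of phases, which were normalised separately. Where a pair of values is given for an age, the G1 value comes first and the S/G2/M value second. The value of a group moved little between tables, with median ratios over the 44 genes between 0.957 (E10.5 G1) and 1.05 (E11.5 S/G2/M).

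**Figure D1:**
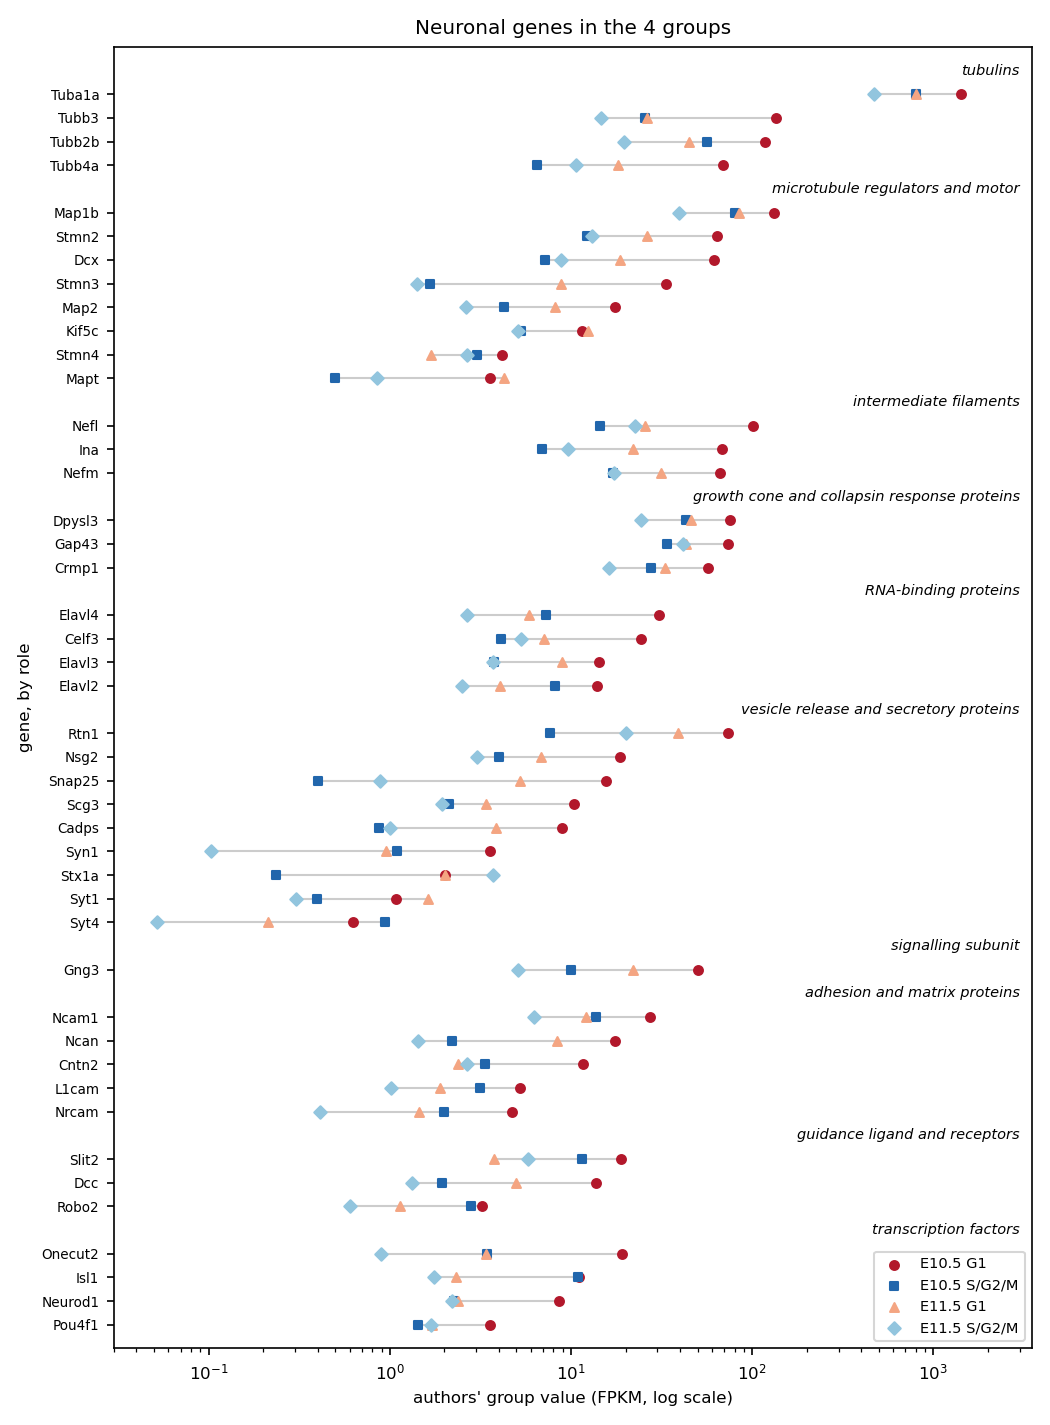
Each row is 1 of the 44 genes, grouped by role, and each symbol is the authors' group value in FPKM on a log axis (red circles E10.5 G1, blue squares E10.5 S/G2/M, orange triangles E11.5 G1, light blue diamonds E11.5 S/G2/M). The grey line spans the lowest to the highest group. E10.5 G1 lies farthest right for 39 of the 44 genes.

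Among the tubulins, which polymerise into microtubules, Tuba1a was the most abundant of the 44 genes. It had 1421 and 799.5 FPKM in G1 and S/G2/M cells at E10.5, then 797 and 473 FPKM at E11.5. Tubb3, the neuron-specific class III beta tubulin, lies on chromosome 8 (123411564 to 123422010, mm10). It had 135 and 25.6 FPKM at E10.5 and 26.3 and 14.6 FPKM at E11.5, so that 1 group stood far above 3 similar ones. Tubb2b, a beta tubulin of migrating neurons on chromosome 13 (34127008 to 34130354), had 118 and 56.0 FPKM at E10.5 and 44.5 and 19.5 FPKM at E11.5, a step down with both phase and age. Tubb4a, an axonal beta tubulin, had 68.6 and 6.495 FPKM at E10.5 and 18.1 and 10.7 FPKM at E11.5. Its lowest group was E10.5 S/G2/M and not E11.5. Tubulin genes resemble each other in sequence, and no source used here says how the authors assigned shared reads, so the split between Tuba1a and Tuba1b or Tubb2b and Tubb2a is uncertain.

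Of the microtubule regulators Map1b, a microtubule-associated protein of growing axons, was the most abundant, with 131 and 80.6 FPKM in G1 and S/G2/M cells at E10.5 and 85.0 and 39.3 FPKM at E11.5. Stmn2, a tubulin-binding protein of growth cones, had 63.6 and 12.2 FPKM at E10.5 and 26.1 and 13.0 FPKM at E11.5. Dcx, the doublecortin of migrating neurons on the X chromosome (143855842 to 143933219), followed nearly the same course, with 61.4 and 7.22 FPKM and then 18.7 and 8.82 FPKM. In both genes the 2 S/G2/M groups lay close together and below both G1 groups. Stmn3, of the same family as Stmn2, had 33.6 and 1.67 FPKM at E10.5 and 8.75 and 1.41 FPKM at E11.5. Map2, a microtubule-associated protein of dendrites, had 17.5 and 4.28 FPKM and then 8.17 and 2.64 FPKM. Both were higher in G1 than in S/G2/M cells at each age. Kif5c, a neuronal kinesin heavy chain that carries axonal cargo, had 11.6 and 5.31 FPKM at E10.5 and 12.5 and 5.08 FPKM at E11.5. Its values were ordered by phase and close between ages, and it was called in no comparison. Mapt, which encodes tau, likewise had 3.56 and 4.27 FPKM in the 2 G1 groups and 0.496 and 0.845 FPKM in the S/G2/M groups. Stmn4 stayed between 1.69 and 4.14 FPKM in all groups, with no order by phase.

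The 3 intermediate filament genes, which encode the neurofilament proteins, shared 1 order. Nefl, the light neurofilament chain, had 101 FPKM in E10.5 G1 cells and 14.4 to 25.5 FPKM in the other 3 groups. Ina, alpha-internexin, had 68.0 FPKM against 6.89 to 22.1 FPKM, and Nefm, the medium chain, 66.7 FPKM against 17.0 to 31.3 FPKM. In each of them E11.5 G1 was the second highest group and E10.5 S/G2/M the lowest.

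Growth cone and collapsin response genes were abundant in every group. Dpysl3, a collapsin response mediator of axon growth, had 75.0 and 43.0 FPKM at E10.5 and 45.8 and 24.4 FPKM at E11.5. Crmp1, of the same family, had 56.8 and 27.6 FPKM and then 33.1 and 16.3 FPKM, which is the same order of groups. Gap43, a growth cone membrane protein, had 73.6 FPKM in E10.5 G1 cells, and its other 3 groups lay within 34.0 to 42.9 FPKM.

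Of the RNA-binding genes, Elavl2, Elavl3 and Elavl4 encode the Hu proteins that stabilise neuronal transcripts and Celf3 a splicing regulator of the nervous system. Elavl4 had 30.6 and 7.32 FPKM in G1 and S/G2/M cells at E10.5, and 5.86 and 2.68 FPKM at E11.5. Celf3 had 24.4 and 4.10 FPKM and then 7.06 and 5.30 FPKM. Both were more than 3 times as high in E10.5 G1 cells as in any other group. Elavl3, on chromosome 9, kept more of its level in G1 cells with age, at 14.3 and 8.88 FPKM, with 3.76 and 3.69 FPKM in the S/G2/M groups. Elavl2 differed more with age, at 14.0 and 8.16 FPKM at E10.5 and 4.08 and 2.49 FPKM at E11.5.

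Among genes of vesicle release and secretion, Rtn1, a reticulon of neuroendocrine cells on chromosome 12 (72211749 to 72409054), had 73.1 and 7.63 FPKM at E10.5 and 38.9 and 20.04 FPKM at E11.5. Its E11.5 S/G2/M value was above its E10.5 S/G2/M value, against the order of most of the genes. Nsg2, an endosomal protein of neurons, had 18.7 and 4.01 FPKM and then 6.85 and 3.01 FPKM. Snap25, a SNARE protein of the presynaptic membrane on chromosome 2 (136713450 to 136782428), had 15.5 FPKM in E10.5 G1 cells and 5.24 FPKM in E11.5 G1 cells, but 0.403 and 0.886 FPKM in the S/G2/M groups. It was the gene with the widest gap between phases at E10.5. Scg3, a granin of secretory granules, had 10.4 and 2.11 FPKM at E10.5 and 3.39 and 1.93 FPKM at E11.5. Cadps, which primes dense-core vesicles, had 8.93 and 0.867 FPKM and then 3.83 and 1.003 FPKM, both genes again being higher in G1. The remaining synaptic genes were low. Syn1, a synaptic vesicle phosphoprotein, ran from 3.56 FPKM in E10.5 G1 cells to 0.103 FPKM in E11.5 S/G2/M cells. Stx1a, the SNARE protein syntaxin 1A, had 2.02 FPKM in both G1 groups but 0.236 FPKM in E10.5 and 3.72 FPKM in E11.5 S/G2/M cells. The calcium sensors Syt1 and Syt4 stayed between 0.303 and 1.62 FPKM and between 0.0520 and 0.947 FPKM. Gng3, a G protein gamma subunit of neurons, had 50.1 and 9.96 FPKM at E10.5 and 21.8 and 5.09 FPKM at E11.5.

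Adhesion and matrix genes differed in the order of their groups. Ncan, a chondroitin sulfate proteoglycan of the brain matrix on chromosome 8 (70093085 to 70120844), was ordered by phase, with 17.5 and 8.37 FPKM in the E10.5 and E11.5 G1 groups and 2.21 and 1.43 FPKM in the S/G2/M groups. Ncam1, the neural cell adhesion molecule, was ordered by age and phase alike, with 27.4 and 13.8 FPKM at E10.5 and 12.1 and 6.25 FPKM at E11.5. L1cam, an axonal adhesion molecule, had 5.20 and 3.15 FPKM and then 1.90 and 1.02 FPKM. Nrcam, of the same family, had 4.71 and 1.99 FPKM and then 1.44 and 0.412 FPKM, so both L1 family genes had the group order of Ncam1. Cntn2, a contactin of early axons on chromosome 1 (132509425 to 132542940), had 11.6 FPKM in E10.5 G1 cells and 2.37 to 3.35 FPKM elsewhere.

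Of the guidance genes, Slit2, a secreted repellent of axons on chromosome 5 (47983155 to 48306282), had 18.8 and 11.47 FPKM at E10.5 and 3.77 and 5.79 FPKM at E11.5. Robo2, a receptor for Slit proteins, had 3.24 and 2.81 FPKM and then 1.14 and 0.604 FPKM. Ligand and receptor were thus both higher at E10.5 than at E11.5 in each phase. Dcc, a netrin receptor, was also higher at E10.5 in each phase, but both its G1 groups lay above both its S/G2/M groups. At E10.5 and E11.5 it had 13.7 and 4.95 FPKM in the G1 groups and 1.93 and 1.33 FPKM in the S/G2/M groups.

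The 4 transcription factors were Isl1 of motor and sensory neurons, Pou4f1 of sensory neurons, Neurod1 of differentiating neurons and Onecut2. Onecut2 had 19.1 FPKM in E10.5 G1 cells, 3.44 and 3.40 FPKM in E10.5 S/G2/M and E11.5 G1 cells, and 0.895 FPKM in E11.5 S/G2/M cells. Isl1 had nearly equal values in the phases at E10.5, 11.12 and 10.99 FPKM, and 2.33 and 1.75 FPKM at E11.5. It was thus ordered by age. Neurod1 had 8.60 FPKM in E10.5 G1 cells and 2.21 to 2.39 FPKM elsewhere, and Pou4f1 3.56 FPKM against 1.43 to 1.70 FPKM.

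Between the phases at E10.5, 43 of the 44 genes were lower in S/G2/M than in G1 cells, and Syt4 was higher. The median log2 ratio was -1.95, against -0.04 over all tested genes. Of the 44, 14 fell at a q-value under 0.05 in the authors' deposited table, where 0.462% of the 12984 tested genes fell. These 14 were Tubb3, Tubb4a, Dcx, Stmn2, Map2, Nefl, Nefm, Elavl3, Rtn1, Cadps, Ncan, Cntn2, Dcc and Onecut2, with folds from 3.46 (Cntn2) to 10.6 (Tubb4a). As this contrast served to choose the genes, nothing is read from the count. With the groups entered the other way round in the authors' deposited table, Celf3 and Elavl4 were called as well, 16 in all, where 0.485% of tested genes fell. Some of the widest gaps were not called. Snap25 was 38.5-fold, Stmn3 20.1-fold and Ina 9.86-fold lower in S/G2/M cells, and their unadjusted p-values in the authors' deposited table were 0.0718, 0.196 and 0.193. By role, the median log2 ratio was -2.81 for intermediate filaments, -2.33 for Gng3, -2.30 for vesicle genes, -2.20 for microtubule regulators, -1.997 for RNA-binding genes, -1.74 for tubulins, -1.62 for transcription factors, -1.24 for adhesion genes, -1.04 for growth cone genes and -0.71 for guidance genes. In bulk RNA, fewer cells of a type and less RNA per cell cannot be told apart. The cluster cell markers did not move alike, with a median of -0.17, while the macrophage markers had a median of -0.63, with 9 of 10 lower, and the erythroid markers of 0.45. Urogenital ridge markers had a median of -1.51, with 7 of 10 lower and sums of 69.9 and 44.4 FPKM in G1 and S/G2/M cells, and somite and mesenchyme markers of -0.02. None of these 5 lists had a gene called in the authors' deposited table. In this order, 0, 3, 0, 3 and 1 of their genes had p under 0.05 there before adjustment. The part of other cell types in the difference was not tested.

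At E11.5, 38 of the 42 tested genes were again lower in S/G2/M than in G1 cells. The median log2 ratio was -0.98, against -0.06 over all tested genes. Ncan fell 5.84-fold, from 8.37 to 1.43 FPKM, with a q-value of 0.0102 in the authors' deposited table, and was the 1 gene of the 42 called, where 0.564% of 12414 tested genes fell. It was also the 1 called in the authors' deposited table in the other order, where 0.51% of tested genes fell. By unadjusted p-values under 0.05 in the authors' deposited table, 15 of the 42 passed, against 8.27% of all tested genes. Among these 15 were Onecut2 (3.80-fold lower), Dcc (3.72-fold), Map2 (3.10-fold), Kif5c (2.45-fold), Elavl3 (2.41-fold), Tubb2b (2.28-fold), Map1b (2.16-fold) and Dcx (2.12-fold). The 4 genes with higher values in S/G2/M cells were Stx1a (1.84-fold), Stmn4 (1.58-fold), Slit2 (1.54-fold) and Cntn2 (1.12-fold), and none of them was called. Syt4 and Syn1 were not tested by the authors at this age. This contrast does not hold the E10.5 G1 group, but its G1 group enters the contrast of ages in G1 that also served to choose the genes.

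The 2 contrasts of phase share no samples. Of the 42 genes tested at both ages, 38 were lower in S/G2/M cells at both and 4 at E10.5 only. The ratio of S/G2/M to G1 was lower at E10.5 for 33 genes and at E11.5 for 9, namely Tubb2b, Map1b, Syt1, Dpysl3, L1cam, Nrcam, Robo2, Isl1 and Kif5c. The genes were chosen mainly for high E10.5 G1 values, which favours a wider gap at E10.5, so nothing is read from these counts. Whether the phase difference itself differed between ages was not tested, since the tables hold no value per sample. Nefl was 7.03-fold lower in S/G2/M cells at E10.5 and 1.12-fold at E11.5. Mapt (7.16-fold and 5.05-fold), Gng3 (5.03-fold and 4.29-fold) and Crmp1 (2.06-fold and 2.03-fold) were closer. At E11.5 the macrophage markers moved with the neuronal genes: 10 of 10 were lower in S/G2/M cells and 7 were called, with sums of 2123 and 578 FPKM in G1 and S/G2/M cells. Of 7 erythroid markers 6 were lower and Hba-x and Hbb-bh1 fell, with sums of 11744 and 3036 FPKM. No marker of either list was at 0, and their part in the neuronal difference was not tested.

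**Figure D2:**
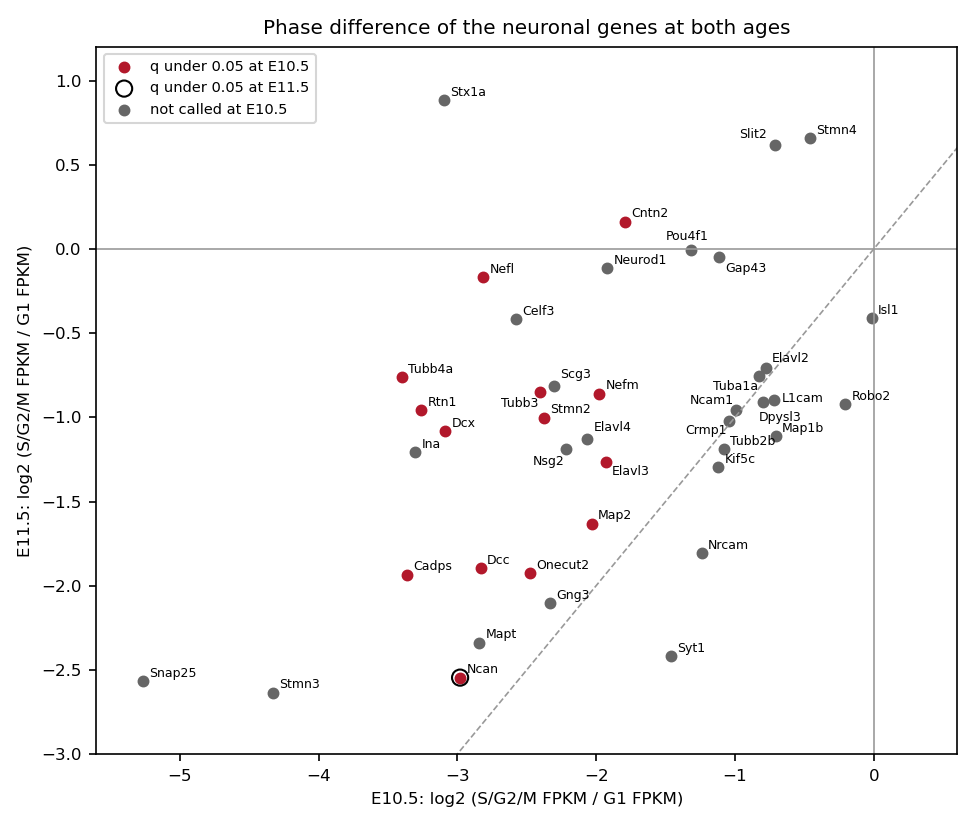
Each point is 1 of the 42 neuronal genes tested at both ages, with the log2 ratio of S/G2/M to G1 FPKM at E10.5 on the horizontal axis and at E11.5 on the vertical axis. Red points had a q-value under 0.05 at E10.5, the black ring marks Ncan, called at E11.5, and the dashed line marks equal ratios. Of the points, 33 lie above that line, and 4 lie above 0 on the vertical axis. The genes were chosen mainly for high E10.5 G1 values, which favours points above the line.

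With age in G1 cells, 39 of the 43 tested genes were lower at E11.5 than at E10.5, with a median log2 ratio of -1.36 against 0.02 over all tested genes. Of the 43, 10 fell in the authors' deposited table, where 1.45% of the 12953 tested genes fell. They were Onecut2 (5.31-fold), Elavl4 (4.93-fold), Tubb3 (4.84-fold), Slit2 (4.69-fold), Cntn2 (4.62-fold), Nefl (3.75-fold), Tubb4a (3.58-fold), Dcx (3.13-fold), Dcc (2.63-fold) and Tubb2b (2.50-fold). Kif5c, Mapt, Stx1a and Syt1 had higher values at E11.5, between 1.06-fold and 1.58-fold, and none was called. This contrast too served to choose the genes, and it shares its E10.5 G1 group with the contrast of phases at E10.5, so the 7 genes called in both (Tubb3, Tubb4a, Dcx, Dcc, Nefl, Cntn2 and Onecut2) are not independent evidence. In the same cells all 10 macrophage markers rose, and 10 of 12 tested cluster cell markers were higher at E11.5, of which Pecam1, Runx1 and Ptprc rose. Markers of neighbouring tissues were lower with the neuronal genes: 11 of 11 tested somite and mesenchyme markers (median -1.67; Meox1, Prrx1, Pdgfra and Col3a1 fell) and 7 of the 9 urogenital ridge markers above 0 in both groups (median -2.16; Emx2 fell, as did Nr5a1, listed at 0 at E11.5). Their part in the neuronal difference was not tested.

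With age in S/G2/M cells, the neuronal genes split. Of 43 tested, 26 were lower and 17 higher at E11.5, with a median log2 ratio of -0.35 against 0.03 over all tested genes. The E10.5 S/G2/M group here also enters the contrast of phases that served to choose the genes. Genes chosen as low in that group tend to look higher at E11.5, so nothing is read from the split. Tubb2b fell from 55.8 to 20.5 FPKM (2.72-fold, q-value 0.0179 in the authors' deposited table) and Onecut2 from 3.45 to 0.937 FPKM (3.69-fold, q-value 0.0213 in the authors' deposited table). These 2 of 43 compare with 1.93% of the 12768 tested genes that fell. By unadjusted p-values under 0.05 in the authors' deposited table, 13 of the 43 passed, against 13.9% of all tested genes. Of those not called, Isl1 was 5.98-fold, Robo2 4.45-fold, Elavl2 3.16-fold, L1cam 2.92-fold, Elavl4 2.64-fold, Ncam1 2.12-fold and Map1b 1.96-fold lower at E11.5. Rtn1 was 2.75-fold higher at E11.5, with 7.64 and 21.0 FPKM, an unadjusted p of 0.0317 and a q-value of 0.284 in the authors' deposited table.

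Whether the roles differed was not tested, and the limit set by the choice of genes holds for each role. All 5 adhesion and matrix genes and all 3 guidance genes were lower at E11.5, with medians of -1.08 and -0.92 and none called. All 3 intermediate filament genes had higher values at E11.5, with a median of 0.52 and none called. The vesicle genes (median 0.11) and the microtubule regulators (median -0.04) were divided evenly, 4 lower and 4 higher each. Tubulins had a median of -0.71, growth cone genes of -0.68, RNA-binding genes of -0.68, transcription factors of -0.94 and Gng3 of -0.89. The widest ratios belonged to low genes that were not called. Syt4 was 17.3-fold lower at E11.5, at 0.948 and 0.0549 FPKM, and Stx1a was 17.0-fold higher, at 0.232 and 3.94 FPKM, with unadjusted p-values of 0.11 and 0.224 in the authors' deposited table. In these cells all 13 cluster cell markers were higher at E11.5, and Kit, Pecam1, Cd34, Runx1 and Gata2 rose, while the macrophage sum was 172 FPKM before and 578 FPKM after. Lower at E11.5 were 12 of 12 somite and mesenchyme markers (median -1.71; Meox1, Prrx1, Pdgfra and Col3a1 fell), 8 of 8 tested urogenital ridge markers (median -1.07, none called in the authors' deposited table, 2 with p under 0.05 before adjustment) and 6 of 7 erythroid markers (median -2.54; Hbb-bh1 fell). The part of these cell types in the neuronal values was not tested.

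To see whether whole gene families moved, 15 of the neuronal genes were set beside a relative of broader expression, in pairs chosen by family with the values known. At E10.5, in the contrast that served to choose the genes, the neuronal gene had the lower log2 ratio of S/G2/M to G1 in 15 of 15 pairs. At E11.5 it had the lower ratio in 13 of 15, the exceptions being Stx1a and Nefl. With pairs chosen in this way, nothing is read from either count. Tubb3 made up 13.3% of the summed FPKM of Tubb3 and Tubb5 in E10.5 G1 cells, and 2.46%, 3.72% and 1.48% in E10.5 S/G2/M, E11.5 G1 and E11.5 S/G2/M cells. Over the same groups Tubb5, a widely expressed beta tubulin, had 879, 1013, 680.1 and 972 FPKM. Snap25 made up 19.1%, 0.595%, 4.75% and 1.22% of its sum with Snap23, a SNARE protein of other tissues. Rtn1 made up 47.6%, 11.51%, 39.2% and 27.5% of its sum with Rtn4. The share of Kif5c in its sum with Kif5b was similar at both ages, 26.5% and 27.2% in G1 and 13.8% and 13.8% in S/G2/M cells. The share of Tubb2b in its sum with Tubb2a was close in the E10.5 phases, 76.2% and 72.8%, but 51.1% in E11.5 G1 and 38.1% in E11.5 S/G2/M cells. In the list of 26 relatives none was called between phases in the authors' deposited tables. There, 2 at E10.5 and 3 at E11.5 had p under 0.05 before adjustment. That list had median log2 ratios of -0.02 at E10.5 and -0.15 at E11.5. It is not free of neuronal genes, since Kif5a, with 5.85 and 0.910 FPKM in G1 and S/G2/M cells at E10.5, is a neuronal kinesin.

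**Figure D3:**
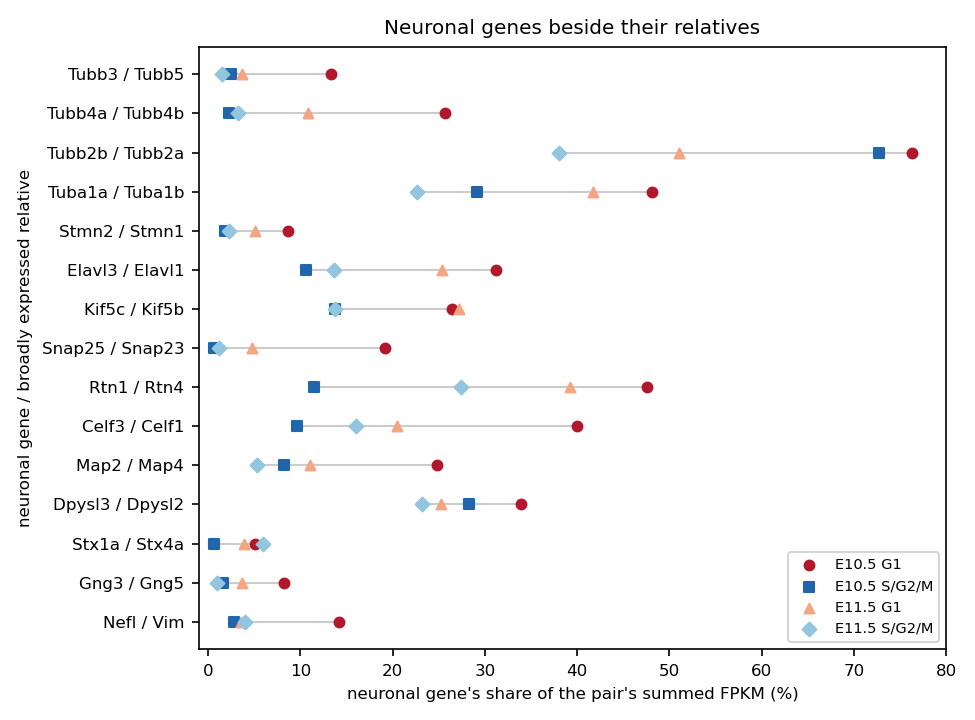
Each row is a pair of a neuronal gene and a broadly expressed relative, and each symbol gives the neuronal gene's percent of the pair's summed FPKM in 1 of the 4 groups. E10.5 G1 (red circles) lies right of E10.5 S/G2/M (blue squares) in all 15 pairs, and Tubb2b has the largest share, 76.2% in E10.5 G1 cells. The E10.5 contrast served to choose the neuronal genes, and the pairs were chosen with the values known, so nothing is read from the count.

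Other genes of the nervous system were read from lists drawn up by function. Neural progenitor markers had no common direction between phases. At E10.5, 8 of 15 were lower and 7 higher in S/G2/M cells, with a median log2 ratio of -0.02. None was called in the authors' deposited table, where 1 had p under 0.05 before adjustment. Msi1, an RNA-binding protein of neural stem cells, had 101 and 88.3 FPKM at E10.5, and Fabp7, a lipid-binding protein of radial glia, 78.7 and 62.5 FPKM. Sox2, a factor of neural progenitors, had 4.33 and 7.84 FPKM. The same list differed by age in both phases, with medians of -2.58 in G1 and -2.65 in S/G2/M cells. Msi1 had 13.8 FPKM in both E11.5 groups and fell 6.90-fold in G1 and 6.07-fold in S/G2/M cells. Zic1 also fell in G1 cells and Lix1 in S/G2/M cells. Sox3 fell in S/G2/M cells too, from 1.60 FPKM at E10.5, and was listed at 0 at E11.5. The sum of the 15 progenitor markers was 306, 276, 104 and 96.4 FPKM in E10.5 G1, E10.5 S/G2/M, E11.5 G1 and E11.5 S/G2/M cells, so it followed age, whereas the sum of the 44 neuronal genes followed both phase and age. Tuba1a was the largest part of the neuronal sum in every group. The largest part of the progenitor sum was Msi1 at E10.5 and Nes at E11.5. Nes itself did not follow age, with 39.1, 35.5, 44.3 and 33.6 FPKM in the same order of groups. Of 14 progenitor markers above 0 in both groups, 12 were lower at E11.5 in G1 cells and 14 of 14 in S/G2/M cells. Whether the 2 lists differ was not tested.

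Further synaptic genes followed the neuronal genes in direction. Of 22 tested synaptic and excitability genes outside the 44, 21 were lower in S/G2/M cells at E10.5, with a median of -1.30. None was called in the authors' deposited table, where 10 had p under 0.05 before adjustment, against 6.69% of all tested genes. At E11.5, 16 of 18 were lower (median -0.85, none called in the authors' deposited table, 3 with p under 0.05 before adjustment). Uchl1, a ubiquitin hydrolase of neurons, had 45.3 and 18.7 FPKM at E10.5 and 9.02 and 3.26 FPKM at E11.5, and Syp, the vesicle protein synaptophysin, 7.52 and 1.26 FPKM and then 2.64 and 2.07 FPKM. With age in G1 cells Syt11 fell 2.89-fold. Of the transmitter and neurotrophin receptor genes, Slc17a6, a vesicular glutamate transporter, had 1.93 FPKM in E10.5 G1 cells and was listed at 0 in E10.5 S/G2/M cells. It fell there, and it rose with age in S/G2/M cells, to 0.916 FPKM in the table of ages. Dbh, the noradrenaline synthesis enzyme, had 13.0 and 3.31 FPKM at E10.5 and 7.88 and 0.664 FPKM at E11.5, and was not called.

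The 32 other neuronal transcription factors summed to 414, 264, 152 and 96.9 FPKM in the 4 groups. Their median log2 ratio was -0.58 between phases at E10.5, where Pou4f2 was the 1 of 26 called and was listed at 0 in S/G2/M cells, and -0.98 at E11.5, where none of 22 was called in the authors' deposited table and 5 had p under 0.05 before adjustment. With age the medians were -1.62 in G1 and -1.92 in S/G2/M cells. Neurod4, a factor of differentiating neurons, fell 8.41-fold in G1 and 8.60-fold in S/G2/M cells, and Sox11 fell 2.47-fold and 2.57-fold. Nhlh1 and Nhlh2 fell in G1 cells, and Ebf2 and Pou3f2 in S/G2/M cells. Neurod6 was listed at 0 in all 4 groups, and Neurod2 and Prrxl1 in 3 of them.

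Neural crest and glial markers, 14 in all, summed to 148, 91.3, 98.3 and 41.1 FPKM, with Gfap at 0 in every group and S100b at 0 in 2 groups. Ngfr, the low-affinity neurotrophin receptor of crest cells, fell 2.98-fold in S/G2/M cells at E10.5 and 2.99-fold with age in G1 cells. Ednrb, an endothelin receptor also found on endothelium, fell 3.20-fold in S/G2/M cells at E11.5. Sox10, a factor that marks crest cells, had 15.8, 11.9, 7.65 and 3.89 FPKM and was not called. Axon guidance genes outside the 44 had medians nearer 0 between phases, -0.27 at E10.5 and -0.55 at E11.5 with none called in the authors' deposited tables, where 4 and 2 had p under 0.05 before adjustment. Several of them, such as Plxnd1 and Nrp1, are also receptors of the endothelium. With age in S/G2/M cells 9 of 26 fell, where 1.93% of all tested genes fell, among them the netrin Ntn1 (5.46-fold), the repellent Slit3 (3.83-fold) and the ephrin receptor Epha4 (6.39-fold). The parts of progenitor, crest and glial cells in the values of the 44 genes were not tested.

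**Figure D4:**
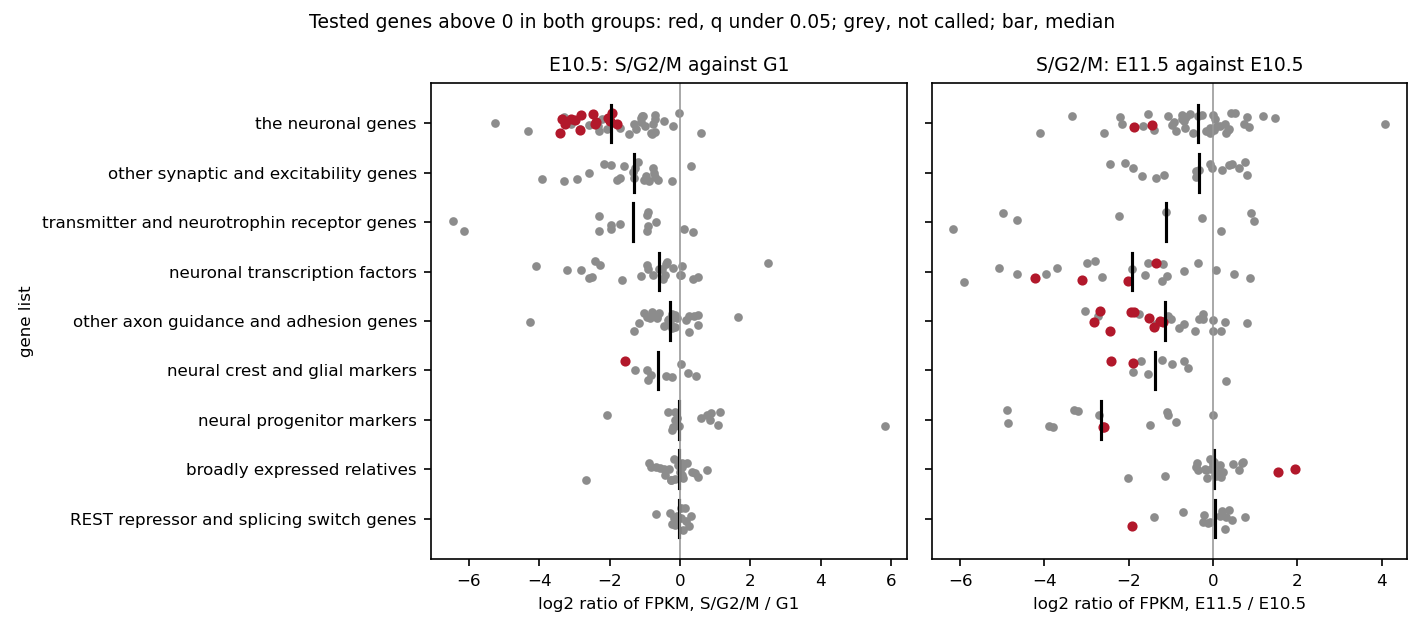
Each point is a tested gene above 0 in both groups, with its log2 ratio on the horizontal axis (left, S/G2/M over G1 at E10.5; right, E11.5 over E10.5 in S/G2/M cells) and its list on the vertical axis. Red points had a q-value under 0.05 and black bars are medians. Of the lists shown, the neuronal genes have the median farthest from 0 on the left (-1.95) and the neural progenitor markers on the right (-2.65). The left contrast served to choose the neuronal genes, so nothing is read from their rank there.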

How the data were processed

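The 12 samples and 4 groups follow the labels. CASAVA 1.4, Cuffdiff, TopHat and mm10 are named, per the submitters' processing notes, without roles, whereas the labels' protocol names bowtie 0.12.2 and mm8. The loci of all 44 genes overlapped the GRCm38 (mm10) gene so named, and coordinates are printed in mm10, counting from 1. The authors deposited 6 tables of 24138 genes with 1 FPKM value per group, per the file headers, and a p-value and q-value from the authors' test. Cuffdiff writes tables of this form. The group that the tables call G2 was taken to be the S/G2/M group. Between 11147 and 11717 genes per table were not tested by the authors.

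Ratios were computed here from the deposited FPKM values without a pseudocount, and a call is a deposited q-value under 0.05. No test was run on samples, since no column holds a single sample. The call counting was tested on simulated data. The members, gene lists, pairs and alternatives were chosen with earlier results of these data known. Of the other lists, called genes and up to 4 of the most abundant or of the highest E10.5 G1 value were named, and Sox2, Syp, Sox10, Kif5a, Nrp1 and Gfap were added after their values were seen. Some named items are not reported here. Outside the lists, the 10 genes with the largest ratio of the E10.5 G1 value to the highest other group were named. They came from genes of at least 5 FPKM in E10.5 G1 cells, tested between the E10.5 phases and above 0 in every other group. Alternatives were q-value limits of 0.01 and 0.085, minimum values of 1 and 5 FPKM, pseudocounts of 1 and 0.1, centring on the median of all genes, recomputed q-values, the first row of a symbol and the tables in the other order. Promoters came from RefSeq (GRCm38.p6). Calculations ran in Python 3.11.15 with pandas 2.3.3, numpy 2.4.6 and, for plots, matplotlib 3.10.9.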

Additional observations from a re-analysis of the deposited data

How the results depend on the processing

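No paired analysis was possible because the tables hold 1 value per group, and for the same reason the planned tests per sample and the fits leaving out a replicate were not run. All 26 alternative medians of the neuronal genes kept their direction and moved by less than 0.58 on the log2 scale, and 21 of 26 alternative counts of called genes stayed within 1.5 times the count reported. The other 5 counts were as follows. At a q-value under 0.01, no neuronal gene was called between phases at E10.5 (0 against 14) or E11.5 (0 against 1), 6 were called with age in G1 cells (against 10) and 0 with age in S/G2/M cells (against 2). For the phases no gene at all could pass in the order reported, since the smallest q-values in those deposited tables were 0.0101 and 0.0102. In the authors' deposited table of the E10.5 phases in the other order, some neuronal genes did pass. Tubb3, Tubb4a, Dcx, Stmn2, Ncan, Dcc, Cadps, Nefl, Nefm and Onecut2 each had a q-value of 0.00999 there. The count of 0 at E10.5 thus depends on the order of the table. Restricted to genes of at least 5 FPKM, 1 gene was called with age in S/G2/M cells, because Onecut2 is below that level. In the authors' deposited table of the E10.5 phases in the other order, 16 genes were called, the same 14 with Celf3 and Elavl4, whose q-values were 0.0602 in the order reported, and at E11.5 Ncan was called in both. Without samples, read totals or standard errors, the precision of the group values is unknown.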

Other observations

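Genes outside the lists whose levels were most like those of the neuronal genes were ranked by the ratio of the E10.5 G1 value to the highest of the other 3 groups. The ranking covered 8341 genes of at least 5 FPKM in E10.5 G1 cells that were tested between the E10.5 phases. Genes listed at 0 in any of the other 3 groups were left out of it. A ratio of at least 2 was found for 226 of them (2.71%), and for 22 of the 35 neuronal genes ranked, which is a description since the neuronal genes were chosen for high E10.5 G1 values. Cck, the neuropeptide cholecystokinin, had 97.5 FPKM in E10.5 G1 cells and 2.71 to 4.54 FPKM elsewhere, and Nxph4, a neurexophilin, 24.3 FPKM against 0.147 to 2.97 FPKM. Both fell in S/G2/M cells at E10.5, with q-values of 0.0183 and 0.0256 in the authors' deposited table. Vsnl1, a calcium sensor of neurons, had 13.9 FPKM against at most 0.357 FPKM, and Doc2b, a vesicle release protein, 6.89 FPKM against at most 0.301 FPKM. Fgf18 had 15.6 FPKM against at most 1.52 FPKM, Grm2, a glutamate receptor, 10.8 against at most 1.34 FPKM, and Islr2 8.16 against at most 0.819 FPKM. Platr5 (9.14 FPKM) and Nap1l2 (5.54 FPKM) complete the list with T. T, which encodes Brachyury of the early mesoderm and notochord, had the largest ratio of the genes ranked, 39.4, at 8.71 FPKM against at most 0.221 FPKM. Vsnl1, Doc2b, Fgf18, Grm2, Islr2, Platr5, Nap1l2 and T were not called.

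The genes that keep neuronal transcripts low in other tissues were followed as well. Rest, the repressor itself, had 21.1 and 21.6 FPKM in G1 and S/G2/M cells at E10.5 and 21.8 and 23.8 FPKM at E11.5. Ptbp1, which suppresses neuronal splicing, had 359.6 and 446 FPKM and then 336 and 389 FPKM. Ptbp2, its counterpart in neuronal precursors, had 29.7 and 26.3 FPKM at E10.5 and 9.06 and 6.64 FPKM at E11.5, and fell with age 3.10-fold in G1 and 3.80-fold in S/G2/M cells. Rcor2, a REST corepressor of neural progenitors, had 29.5 and 31.0 FPKM and then 5.94 and 11.3 FPKM, and fell 4.68-fold with age in G1 cells. None of the 14 genes of this list was called between phases in the authors' deposited tables at either age. None had an unadjusted p under 0.05 there.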
